A study of Danio rerio with 19 samples.

Results

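Whole zebrafish larvae without the oncogene were compared at 14 and 7 days post-fertilization (dpf), to describe how the levels of microRNAs (miRNAs) change with age in normal larvae. The samples were the control RNAs of 6 of the 19 arrays of the study, 3 at 7 dpf and 3 at 14 dpf, all on 1 slide. The control larvae were AB wild type fish and carried no transgene. Each control sample was a pool of 15 whole larvae at 7 dpf or 5 whole larvae at 14 dpf, and the replicates came from different parents. On the same arrays, in the other color, lay the RNA of age-matched kita:HRAS larvae, in which oncogenic HRAS is expressed under the kita promoter, which is active in melanocytes. The control RNA was labeled with Hy5 and read in the red channel on every array, so that a dye effect of a probe is shared by both ages. All 14 dpf arrays lay in row 2 of the slide, while the 7 dpf arrays lay in rows 1, 2 and 1. Age and the number of larvae in a pool cannot be told apart in this design.

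The array holds 546 probes for known zebrafish miRNAs, with 411 distinct sequences, and each probe is spotted 2 times. A probe was tested when its red signal was well above background on at least 2 of 3 arrays at either age, and this left 492 probes. Of these, 453 were measured in this way at both ages. Signals are given on the log2 scale after quantile normalization between arrays over the known probes, so that a difference of 1 is a 2-fold change. A probe was called higher or lower when its linear fold change exceeded 1.2 and its adjusted p-value in limma (Benjamini-Hochberg over the 492 probes) was under 0.05. The signal of a probe also depends on how well it hybridizes, so that each probe is compared only with itself across arrays.

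A miRNA is a short RNA cut from a hairpin precursor, and it lowers the stability and translation of mRNAs that pair with bases 2 to 8 from its 5′ end, called the seed. Both arms of the hairpin can give a product, the left (5′) and the right (3′) arm. Usually one arm, here called the named arm, carries the miRNA that is described in the literature, and the product of the opposite arm is short-lived. The miR-430 family is the best known miRNA family of the early zebrafish embryo, where it clears maternal mRNAs. Other miRNAs mark tissues that grow or mature in the larva, such as miR-192 and miR-194 in the gut, miR-142 in white blood cells, miR-143 and miR-145 in smooth muscle, miR-1 and miR-133 in skeletal muscle, and miR-124 in neurons.

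The sequences below are those read by the probes on which the results turn. They were derived from the deposited probe sequences as the reverse complement of the first 22 bases, and they are written 5′ to 3′ with T for U. Capitals mark bases 2 to 8 of the probed sequence. This is the seed where the probe starts at the 5′ end of the miRNA, and some probes may be offset by a base. The 4 kinds of miR-430 right arm are shown because they share bases 2 to 8.
miR-430a right arm: tAAGTGCTatttgttggggtag
miR-430b right arm: aAAGTGCTatcaagttggggta
miR-430c right arm: tAAGTGCTtctctttggggtag
miR-430i right arm: tAAGTGCTatttgttggcgtag
The following are examples of named arms that were called higher or lower in their groups.
miR-10b-2 left arm: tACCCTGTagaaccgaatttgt
miR-219 left arm: tGATTGTCcaaacgcaattctt
miR-18c left arm: tAAGGTGCatcttgtgtagtta
miR-192 left arm: aTGACCTAtgaattgacagcca
miR-142b right arm: tGTAGTGTttcctactttatgg
miR-146a left arm: tGAGAACTgaattccatagatg
miR-462 left arm: tAACGGAAcccataatgcagct
Both arms of 2 hairpins are given because their arms changed with age to different extents.
miR-21-1 left arm: tAGCTTATcagactggtgttgg
miR-21-1 right arm: cGACAACAgtctgtaggctgtc
miR-133a-1 right arm: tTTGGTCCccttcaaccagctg
miR-133a-1 left arm: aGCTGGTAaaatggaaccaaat

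Between 7 and 14 dpf, 134 probes were called higher (27.2% of the 492 tested) and 129 lower (26.2%), together 53.5%. Among the 453 probes measured at both ages, 118 were called higher (26% of them) and 118 lower (26%). The arrays of the 2 ages did not overlap for any of the 263 called probes. This was common, since 312 of all 492 tested probes had no overlap of the ages. In a principal component analysis, the first component separated the ages and held 82.5% of the variance. The correlation across probes was between 0.988 and 0.998 for pairs of 7 dpf arrays, between 0.984 and 0.994 for pairs of 14 dpf arrays and between 0.934 and 0.959 for pairs of different age. Array 2 of 7 dpf was the dimmest, with 78.8% of the spots of known probes well above background against 85.1% to 90.6% on the other 5 arrays. The balance of higher and lower calls changed with the settings. Averaging identical sequences gave 117 higher and 81 lower among 359 sequences. The normalization gives all arrays the same distribution. Scaling each array to its 75th percentile instead gave 220 higher and 73 lower. It also moved the median difference of all tested probes from 0.02 to 0.28. Changes are therefore relative to the other known miRNAs.

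The named arms of the tissue lists were present at both ages. Outside the miR-430 family, 209 of 210 named-arm probes of the lists were well above background on all 6 arrays. They included those of muscle, neurons, sensory cells, eye, liver, gut, epithelium, cartilage, endothelium, smooth muscle, red and white blood cells and pancreas. In pools of whole larvae, fewer cells of a type and less RNA per cell cannot be told apart.

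The miR-430 family showed the largest decrease. The right arm carries the known miRNA, and all 14 right-arm probes measured at both ages, those of miR-430a, miR-430b and miR-430i with 3 distinct sequences, were called lower at 14 dpf. Their signals lay between 9.89 and 10.95 at 7 dpf and between 6.92 and 8.81 at 14 dpf, and the differences ranged from -3.25 to -2.04. The other 4 of the 18 right-arm probes passed the filter through 7 dpf only, which favors a lower call, and they are left out of these counts. All 18 have AAGTGCT at bases 2 to 8. Among the 453 probes measured at both ages, 28 were called lower by more than 1 on the log2 scale, and 23 of them belonged to this family.

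The brightest right-arm probe, miR-430b-10, read 10.79, 10.95 and 10.70 at 7 dpf and 8.18, 7.63 and 8.42 at 14 dpf. The ages did not overlap, and the signal fell by 2.73 (SE 0.21, 6.66-fold, limma adjusted p = 0.000363). The miR-430i-1 right arm, which differs from miR-430a within the 3′ part of the sequence, read 9.89, 9.93 and 9.96 and then 7.67, 7.95 and 8.04. Its ages did not overlap either, and it fell by 2.04 (SE 0.11, limma adjusted p = 0.000159). The differences ranged from -3.25 to -2.70 over the 6 probes for miR-430b right arms measured at both ages and from -2.69 to -2.53 over the 7 for miR-430a. Probes within a subfamily share a sequence and are therefore repeated measurements of the same RNA.

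**Figure D1:**
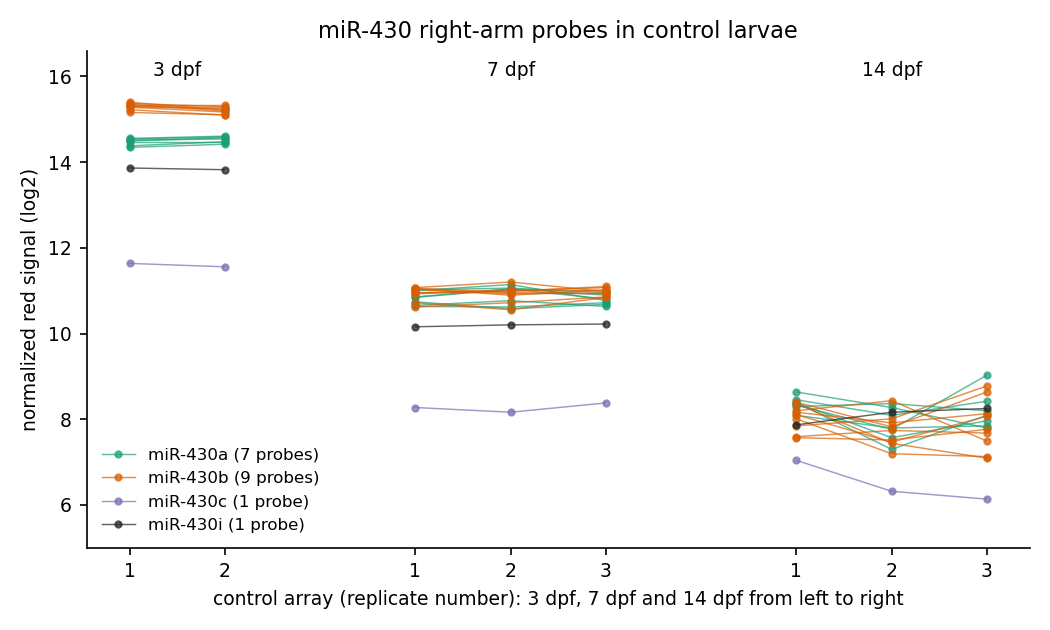
Normalized red signal (log2, y axis) of the 18 right-arm miR-430 probes on each control array at 3, 7 and 14 dpf (x axis, replicate number), with the 8 arrays of the slide normalized together. Points are single arrays, lines join the arrays of a probe within an age and colors give the subfamily. For all 18 probes, among them the 4 that passed the filter through 7 dpf only, the arrays of each age lay below those of the younger age, from 11.56 to 15.4 at 3 dpf down to the 14 dpf arrays, which spread the most.

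At 14 dpf the family was close to the background. Only 9 of the 18 right-arm probes were well above background on all 3 arrays of 14 dpf, and 4 were so on fewer than 2 arrays. With the red median signal corrected by normexp (offset 50), the median change of the 14 right-arm probes measured at both ages was -1.40 in place of -2.69, with all 14 still called lower. Of the 14 left-arm probes measured at both ages, 9 were called lower, with a median of -1.88 over the 14. These were all 7 of miR-430b, which share CTCTAAC at bases 2 to 8, and both of miR-430c. The 5 left-arm probes of miR-430a were not called, with differences between -1.12 and -0.50. The other 3 tested left-arm probes passed the filter through 7 dpf only.

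The slide also held 2 control arrays of 3 dpf, again of pools of 15 AB larvae. On these arrays the right-arm probes stood between 11.56 and 15.4 at 3 dpf. The median change of the 14 measured at both later ages was -3.77 from 3 to 7 dpf and -2.76 from 7 to 14 dpf, with the 8 arrays normalized together. The left arms of the family changed by -0.995 and -1.94 (medians of 14 probes). The difference between 3 and 7 dpf was not tested.

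The miRNAs of the Hox clusters were also lower at 14 dpf. These are miR-10 and miR-196, whose genes lie between Hox genes that pattern the body axis. All 9 named-arm probes (7 distinct sequences) were called lower, with differences between -0.86 and -0.52 and a median of -0.66, against 0.016 for all probes. MiR-10b-2 read 15.27, 15.20 and 15.30 at 7 dpf and 14.60, 14.63 and 14.60 at 14 dpf. The ages did not overlap, and the signal fell by 0.65 (SE 0.06, limma adjusted p = 0.000515). MiR-196a-2 fell by 0.86, from 10.85, 10.35 and 10.78 to 9.85, 9.57 and 9.98 (SE 0.17, limma adjusted p = 0.0079). Scaling to the 75th percentile left 6 of the 9 called lower, and 1 was then at 0.004. The opposite arms of these hairpins gave 1 higher and 3 lower calls among 7 probes, and their median of -0.24 turned to 0.11 under that scaling.

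The miRNAs of the brain were divided. Of 40 named-arm probes on the neuronal list (16 distinct sequences), 22 were called lower, 4 higher and 14 were not called, with a median of -0.33. Among all probes measured at both ages, 26% were called lower and 26% higher. The lower ones were those of miR-219, miR-137, miR-129, miR-128, miR-218, miR-138 and most of those of miR-153 and miR-9. MiR-219, known for its role in oligodendrocyte maturation and myelination, read 15.05, 15.04 and 15.07 at 7 dpf and 14.13, 14.44 and 14.31 at 14 dpf. It fell by 0.76 (SE 0.09, limma adjusted p = 0.0013). The 4 probes called higher were those of miR-132 and miR-212, which share AACAGTC at bases 2 to 8 and are made in neurons in response to activity in mammals. They rose by 0.54 to 0.59. Under 75th percentile scaling the list gave 16 lower and 4 higher calls. The 6 probes of miR-124, the most abundant neuronal miRNA, were not called and lay between -0.09 and 0.00.

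Other families with lower calls were those of sensory cells and of growth. MiR-183, miR-96 and miR-182 are transcribed together in hair cells and photoreceptors, and 2 of the 3 were called lower. MiR-183 fell from 12.31, 12.39 and 12.29 to 11.85, 11.15 and 11.61, a difference of -0.80 (SE 0.18, limma adjusted p = 0.0124). In the miR-17-92 clusters and their paralogs, which are linked to proliferation, 3 of 7 named arms were called lower and 0 higher, beside 26% of the probes measured at both ages called lower. Of these, miR-18c fell by 0.98, from 14.38, 14.42 and 14.30 to 13.33, 13.53 and 13.30 (SE 0.08, limma adjusted p = 0.000515). MiR-363 fell by 0.96, from a mean of 13.07 to 12.10, with no overlap of the ages (SE 0.07, limma adjusted p = 0.000316). The other 4 probes of this list were not called, and the median of the 7, -0.24, turned to 0.01 under 75th percentile scaling.

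Within several lists, the calls differed between members. Of all probes measured at both ages, 26% were called lower and 26% higher. The list of miR-130, miR-301 and miR-454, with 3 of 9 named arms called lower, and the miR-181 family, with 2 of 8, lay near that share. In the list of miR-99, miR-100 and miR-125, whose genes lie in the same clusters as let-7 genes, the 4 probes of miR-99 and miR-100 were called lower and the 6 of miR-125 were not. The left arm of miR-99-2 fell by 0.77 (SE 0.07, limma adjusted p = 0.000642), and no array of 14 dpf reached the level of 7 dpf. The right arm of that hairpin, with a mean signal of 17.18 against 12.29, was called higher by 0.40. That of miR-99-1 was not called (-0.06). In the list of miR-130, miR-301 and miR-454, the 3 probes of miR-301 were called lower, with miR-301c falling by 0.53 (SE 0.06, limma adjusted p = 0.000846), and the other 6 were not called. In the miR-181 family, miR-181c fell by 0.69 (SE 0.13, limma adjusted p = 0.00699), while the 5 probes of miR-181a lay between -0.04 and 0.07. The left arms of miR-181b-2 and miR-181b-1 share a sequence, yet the first was called lower (-0.41) and the second was not called (-0.28). Under 75th percentile scaling 1 of the 8 named-arm probes of this family was called lower. For endothelial miR-126, in which both arms are in use, the 2 left-arm probes were called lower and the 2 right-arm probes were not. The left arm fell by 0.87, from 11.95, 11.97 and 11.82 to 11.15, 10.83 and 11.15 (SE 0.11, limma adjusted p = 0.00153), and it was no longer called under 75th percentile scaling, where the difference was -0.12. The right arm of the same hairpin read between 15.76 and 15.83 on all 6 arrays.

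The gut miRNAs showed the clearest increase among the tissue lists. MiR-192, miR-194a and miR-194b, made in the intestinal epithelium and found in liver and kidney as well, were all called higher, by 1.01, 0.84 and 0.92. In the RefSeq gene table of zebrafish, mir194a and mir192 are adjacent entries on one chromosome. MiR-192 read 16.49, 16.49 and 16.61 at 7 dpf and 17.62, 17.48 and 17.52 at 14 dpf, a 2.01-fold rise (SE 0.07 on the log2 scale, limma adjusted p = 0.000301). It had stood at 13.6 at 3 dpf, and the median of the 3 miRNAs rose by 2.96 from 3 to 7 dpf. The opposite arms of the 3 hairpins were called higher as well. MiR-122, the main miRNA of the liver, rose by 2.44 from 3 to 7 dpf but was not called between 7 and 14 dpf, with a difference of 0.11 (95% CI -0.03 to 0.25).

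On the list of white blood cells, 3 of 5 named-arm probes were called higher at 14 dpf and 0 lower. Of all probes measured at both ages, 26% were called higher and 26% lower. Of the 3, 2 are the arms of miR-142b, which is found in all white blood cells. The right arm read 13.47, 13.47 and 13.49 at 7 dpf and 14.45, 14.38 and 14.38 at 14 dpf, a rise of 0.93 (SE 0.05, limma adjusted p = 0.000198). The left arm rose by 1.15 (SE 0.09, limma adjusted p = 0.000351). MiR-155, which is induced in activated lymphocytes and macrophages, was called higher by 0.51. It was no longer called with quantile normalization over known and predicted probes (0.22), cyclic loess (0.05), the normexp correction (0.18), the fit of both channels (0.05), or without replicate 1 of 7 dpf (0.55) or replicate 1 (0.48) or 3 (0.46) of 14 dpf. MiR-223 of neutrophils and miR-150 of lymphocytes were not called, at 0.03 and 0.22.

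Of the miRNAs that the study followed in Ras larvae, those of miR-21 and miR-146 also rose with age in the controls. The miR-21-1 left arm read 14.29, 14.29 and 14.33 at 7 dpf and 14.98, 15.11 and 15.05 at 14 dpf, a rise of 0.74 (SE 0.06, limma adjusted p = 0.000433). The miR-21-2 left arm, which has the same sequence, rose by 0.76 (SE 0.09, limma adjusted p = 0.00111). MiR-146a, induced by NF-kB signaling in mammals, read 12.42, 12.26 and 12.55 and then 12.97, 13.16 and 13.16, a rise of 0.69 (SE 0.10, limma adjusted p = 0.0025). MiR-146b-1 rose by 0.73 (SE 0.11, limma adjusted p = 0.00246). The 3 right-arm probes of miR-193a and its paralog miR-193b were not called (limma, 0 of 3 at an unadjusted p below 0.05) and differed by -0.07 to 0.15, whereas 75th percentile scaling called all 3 higher, by 0.53 to 0.71. From 3 to 7 dpf, miR-146 had risen by a median of 2.52 and miR-193 by 1.35, whereas miR-21 had changed by -0.06. MiR-133, which the study used as a reference in quantitative PCR, did not pass the test in any of its 4 right-arm probes, with differences between -0.12 and 0.07.

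**Figure D2:**
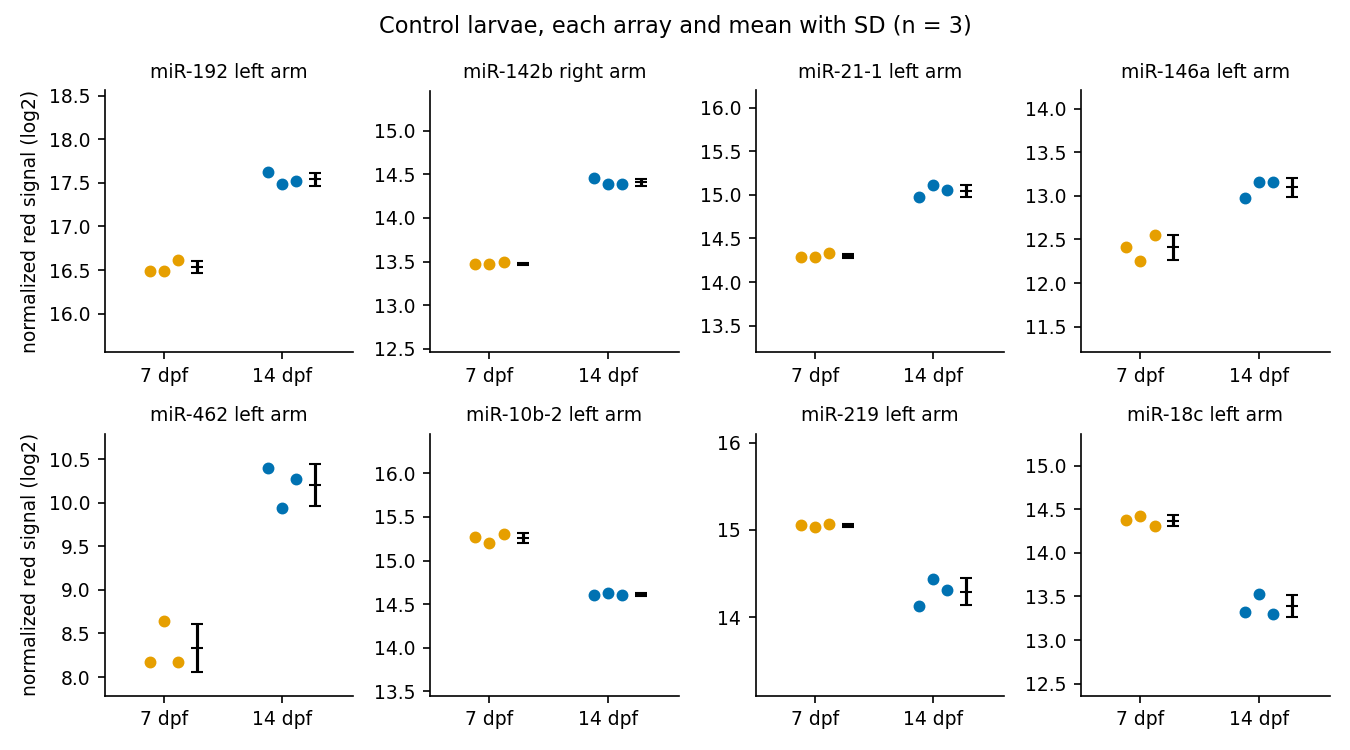
Normalized red signal (log2, y axis, each panel spanning 3 units) of 8 named arms on the 3 control arrays at 7 dpf and the 3 at 14 dpf (points), with the mean and SD beside them. The arrays of the 2 ages did not overlap in any panel: miR-192, miR-142b, miR-21-1, miR-146a and miR-462 were higher at 14 dpf, and miR-10b-2, miR-219 and miR-18c were lower.

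Smooth muscle miR-143 and miR-145 were called higher in all 3 named-arm probes, by 0.36 to 0.51. MiR-145 read 14.31, 14.24 and 14.41 at 7 dpf and 14.71, 14.93 and 14.83 at 14 dpf (SE 0.08, limma adjusted p = 0.0039). In the clusters of miR-23, miR-24 and miR-27, 8 of 12 named-arm probes were called higher and 0 lower. These 8 were all those of miR-23 and miR-27, between 0.35 and 0.50, whereas the 4 of miR-24 lay between 0.10 and 0.15 and were not called. Under 75th percentile scaling all 12 were called higher. MiR-30b rose by 0.35 (SE 0.05, limma adjusted p = 0.00291), and of the 10 named-arm probes for miR-30 and miR-26, 3 were called higher and 0 lower, near the 26% of probes measured at both ages that were called higher. The let-7 family, which marks the passage to later developmental stages in worms, gave 1 called probe of 18, with differences between -0.04 and 0.27. Of the 18, 7 had an adjusted p below 0.05 in limma, but only let-7a-1 (0.27) passed the fold threshold, and it fell under it without replicate 1 of 14 dpf (0.25) or replicate 3 of 7 dpf. Under 75th percentile scaling 17 of the 18 were called higher.

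MiR-462 and miR-731 are neighbors in teleosts and are induced by interferon in fish. MiR-462 gave the largest rise among the named arms of the lists measured at both ages. It read 8.17, 8.65 and 8.18 at 7 dpf and 10.40, 9.93 and 10.27 at 14 dpf, a rise of 1.87 (SE 0.18, limma adjusted p = 0.00077). MiR-731 was not well above background on any array of 7 dpf (7.04, 6.99 and 6.88) and was on all 3 of 14 dpf (9.43, 8.38 and 9.08). It passed the filter through 14 dpf only, which favors a rise, so no p-value is given for it. Its signal was at least 2.88-fold higher at 14 dpf. Such a bound sets the bright group against the lowest signal that counts as well above background on each array. The rise of miR-462 was 0.96 with the normexp correction and 0.83 with a fit of both channels, and it was called in each.

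**Figure D3:**
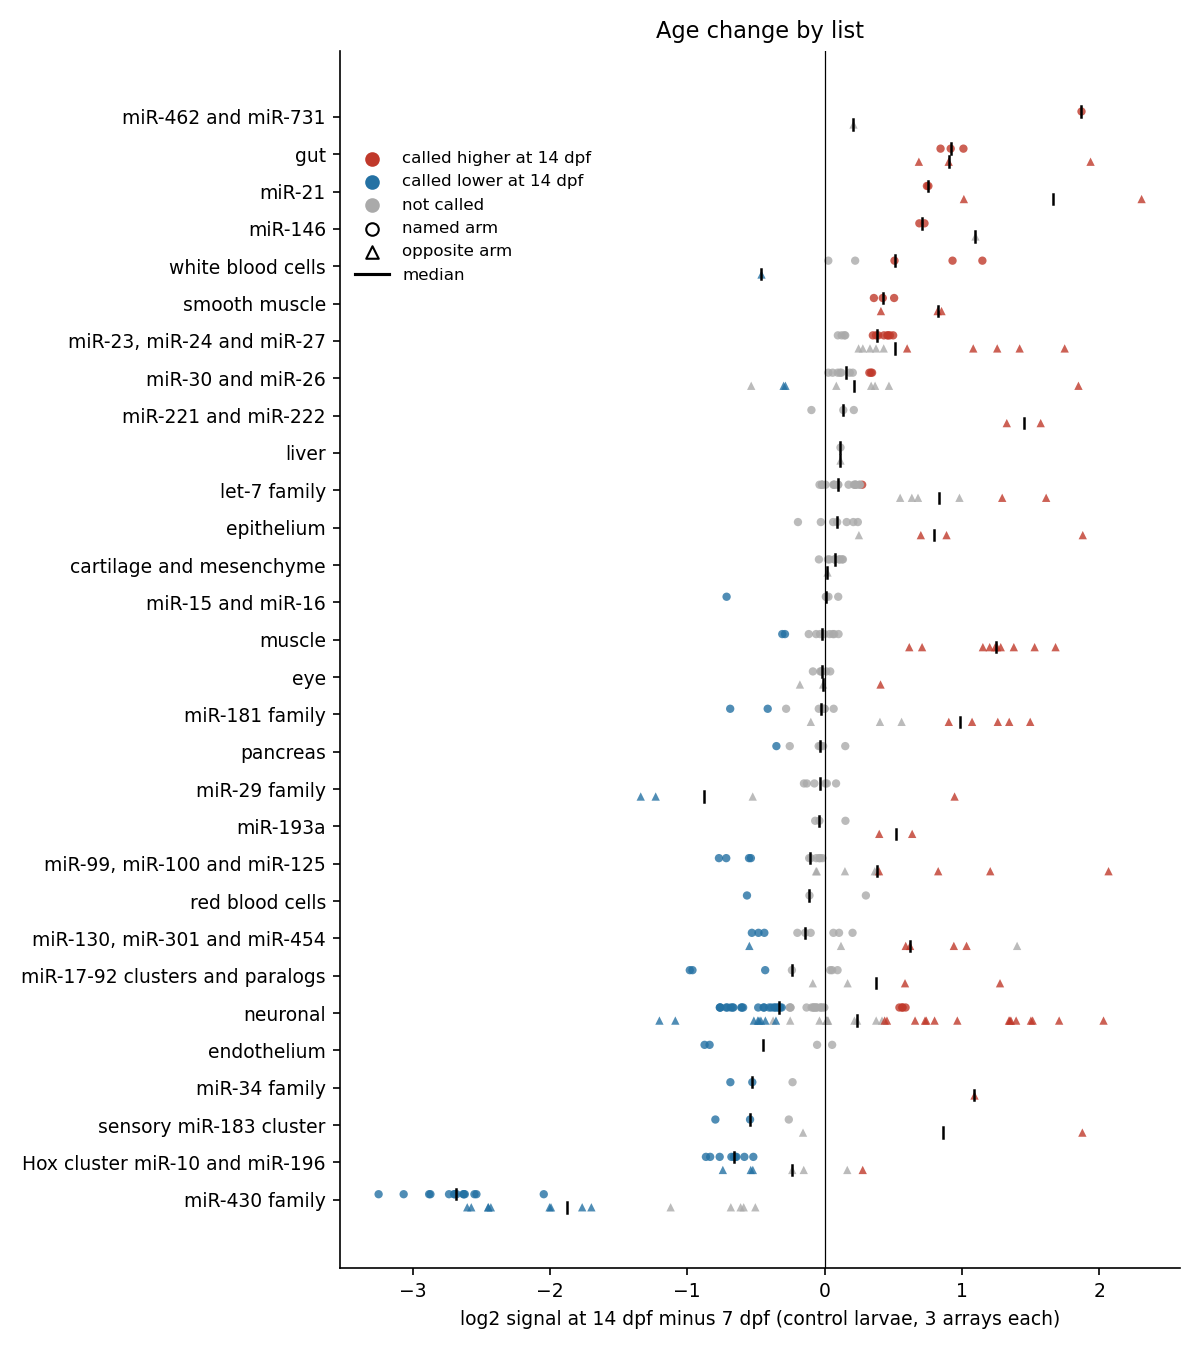
Difference in log2 signal between 14 and 7 dpf (x axis) for the probes measured at both ages, by list of miRNAs (y axis), with circles for named arms, triangles for opposite arms and bars for medians. The family of miR-430 and the miRNAs of the Hox clusters lay to the left, gut, miR-21 and miR-146 to the right, and the opposite arms of muscle lay at a median of 1.25 while the named arms lay at -0.02. Scaling to the 75th percentile instead turned the medians of the named arms of muscle, miR-17-92, pancreas, eye, miR-29, miR-193a and red blood cells, and of the opposite arms of the Hox clusters, white blood cells and eye, to above 0, and other scalings turned those of cartilage, epithelium and miR-15 and miR-16 (named arms) and of miR-17-92 and miR-30 and miR-26 (opposite arms).

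A second pattern concerned the arms of a hairpin. Of the 453 probes measured at both ages, 149 read opposite arms and 223 read named arms of the lists, and 26% of the 453 were called higher. Among the 48 of them called higher by more than 1, 39 read opposite arms, 3 read named arms and 6 belonged to miRNAs on no list. The muscle miRNAs show it best. Of the 10 named-arm probes for miR-1, miR-133, miR-206 and miR-499, 0 were called higher (limma, 0 at an unadjusted p below 0.05 upward), 2 were called lower and 8 were not called, while all 10 opposite-arm probes (8 distinct sequences) were called higher by 0.62 to 1.68. The right arm of miR-133a-1, the known miRNA, read 14.74, 14.65 and 14.79 at 7 dpf and 14.88, 14.56 and 14.92 at 14 dpf. Its left arm read 12.78, 12.79 and 12.88 and then 13.80, 14.48 and 14.03. The left arm rose by 1.28 (SE 0.18, limma adjusted p = 0.0019), and the right arm, whose ages overlapped, differed by 0.06 (SE 0.11, limma adjusted p = 0.685).

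Over the lists other than miR-430, the named arms gave 30 higher, 54 lower and 125 uncalled probes of 209, with a median of -0.02. Under 75th percentile scaling they gave 71 higher and 32 lower, with a median of 0.07. The opposite arms gave 68 higher, 17 lower and 50 uncalled probes of 135, with a median of 0.55, which ranged from 0.14 to 1.02 over the scalings and background corrections. In a test of the 2 arms within each array, chosen after the data were seen, the opposite arm changed more upward than the named arm in 69 of 132 hairpins (52.3%) and more downward in 4 (3.03%). Some hairpins, such as miR-133a-1 and miR-133a-2, have the same sequence in both arms and are repeated measurements, so the counts exceed the number of separate RNAs. The 135 opposite-arm probes had 119 distinct sequences. The 69 included all 10 hairpins of muscle, all 7 of the miR-181 family and 19 of 35 of the neuronal list. In miR-206-1 the named arm fell by 0.29 and the opposite arm rose by 1.68, a difference between arms of 1.97 (SE 0.20, limma adjusted p = 0.00118). For miR-21-1, the named arm rose by 0.74 and the opposite arm by 2.31, from 9.14, 8.90 and 9.24 to 11.02, 11.87 and 11.31. The 4 hairpins of the other kind were those of miR-29a-2, miR-29b-1, miR-219-3 and miR-150. Leaving out single arrays changed their number to between 1 and 6, and cyclic loess and the normexp correction each changed it to 10.

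**Figure D4:**
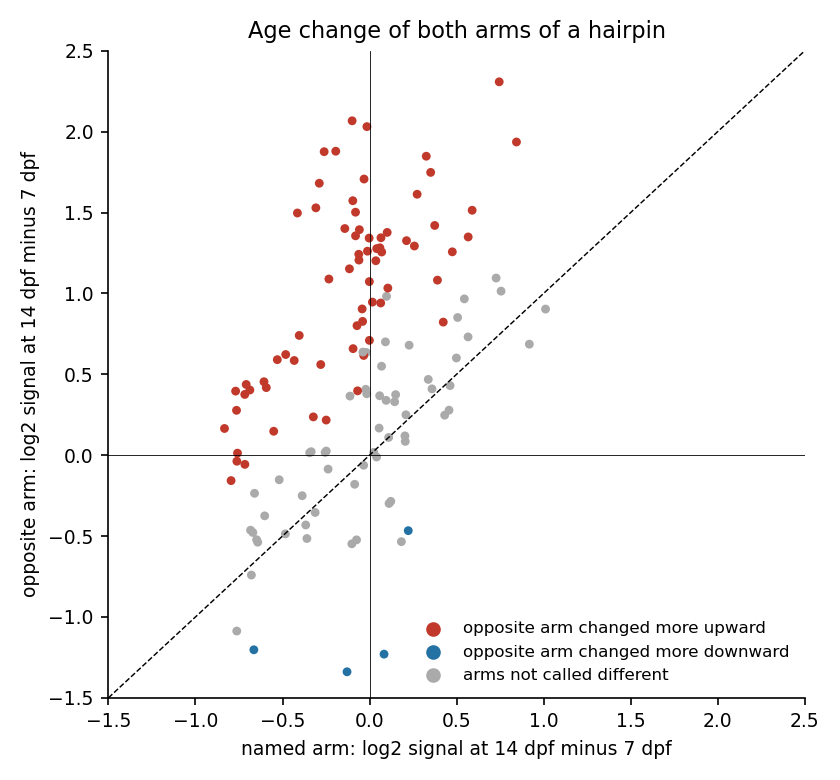
Change in log2 signal from 7 to 14 dpf of the named arm (x axis) and of the opposite arm (y axis) of 132 hairpins, with the line of equal change. Points are hairpins; the 69 in red lie above the line with the opposite arm changing more upward, and the 4 in blue lie below it.

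The signal level moved with this pattern. The median signal was 14.8 for named arms and 9.63 for opposite arms, and the opposite arm was the dimmer in 124 of 132 hairpins, although a signal also depends on its probe and does not measure relative amounts. Over all probes measured at both ages, the median change was 0.217 in the dimmest 151, -0.018 in the next 151 and 0.005 in the brightest 151. Among probes with signals between 8.79 and 10.92, the quartiles of the opposite arms, the 13 named arms gave 2 higher and 8 lower calls with a median of -0.53. These 13 had only 9 distinct sequences, and 4 of the 8 lower calls were left-arm probes of miR-129 that share a sequence. The 67 opposite arms in the same range (60 distinct sequences) gave 38 higher and 8 lower calls with a median of 0.59. The background correction moved the size: with the red median signal and normexp, the median difference between arms was 0.377 in place of 0.652. The opposite arm then changed more upward in 73 of 132 hairpins and more downward in 10. Quantile normalization over known and predicted probes gave 48 more upward and 2 more downward. The part of signal level in this pattern was not tested further.

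At 3 dpf, most of the opposite arms that were higher at 14 than at 7 dpf had stood high as well. Of these 68 probes, 53 were brighter on both 3 dpf arrays than the mean of 7 dpf. They were selected for a lower signal at 7 than at 14 dpf, which favors this. The same held for 83 of all 135 opposite arms, whose median change from 3 to 7 dpf was -0.367. It also held for 66 of all 118 probes called higher. The next values are those of the 68 probes. Their median change was -0.773 from 3 to 7 dpf, 1.11 from 7 to 14 dpf and 0.235 over the whole interval. The 30 named arms called higher followed another course. Only 2 of them were brighter at 3 dpf, and 28 had a lower mean at 3 than at 7 dpf, with medians of 0.594 from 3 to 7 dpf and 0.515 from 7 to 14 dpf. For the left arm of miR-133a-1, the means were 14.43 at 3 dpf, 12.95 at 7 dpf and 14.18 at 14 dpf, whereas the right arm read 14.97, 14.82 and 14.88. The right arm of miR-205, the opposite arm of an epidermal miRNA, read 11.30, 9.11 and 11.04. These values describe 8 arrays, and the 7 dpf samples took part in both differences.

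**Figure D5:**
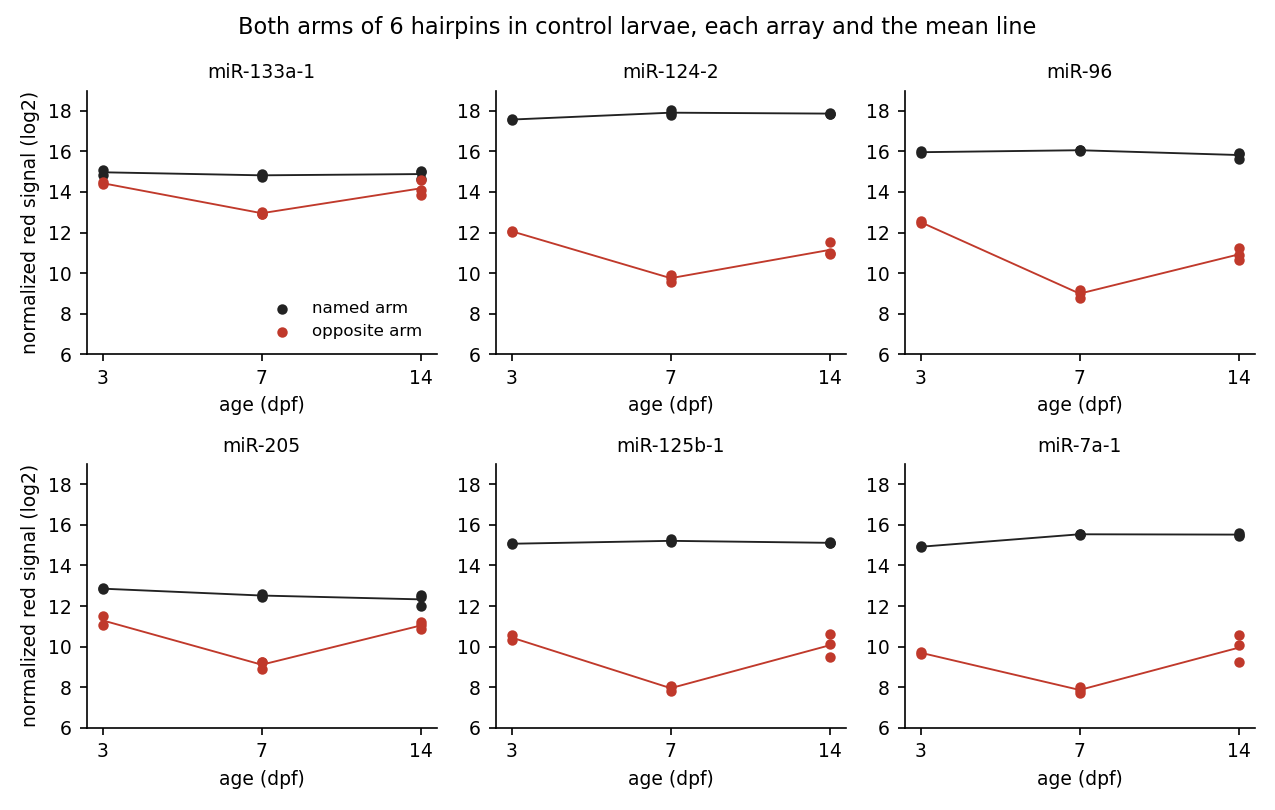
Normalized red signal (log2, y axis) of both arms of 6 hairpins in control larvae at 3, 7 and 14 dpf (x axis, 2, 3 and 3 arrays), with the 8 arrays normalized together. Points are arrays and lines join the means. The named arms in black moved little, and the opposite arms in red were lowest at 7 dpf in all 6 hairpins, for example at 9.11 for miR-205 against 11.30 and 11.04.

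In the miR-29 family the 6 named arms (right arms) were not called (limma, 0 at an unadjusted p below 0.05), with differences between -0.15 and 0.08, after a rise of 4.07 (median) from 3 to 7 dpf. Of the 4 opposite arms measured at both ages, 2 were called lower and 1 higher, and one of the lower ones, miR-29b-1 (-1.34), lost the call without any one of the 7 dpf arrays (limma adjusted p between 0.0733 and 0.109) or without replicate 3 of 14 dpf (0.096). The miR-29a-2 left arm read 10.23, 10.09 and 10.10 at 7 dpf and 8.63, 9.32 and 8.77 at 14 dpf, a fall of 1.23 (SE 0.19, limma adjusted p = 0.00288). The eye, cartilage and miR-221 and miR-222 lists had 0 called named arms (limma), with 2 of 18 at an unadjusted p below 0.05 and differences between -0.10 and 0.21. Epithelial miR-200, miR-141, miR-429, miR-203 and miR-205 also had 0 of 7 named arms called, between -0.19 and 0.24, with 2 of them below an adjusted p of 0.05 in limma but under the fold threshold. These results depended on the normalization. Under 75th percentile scaling, the named arms called higher were 3 of 6 for eye and 2 of 9 for cartilage. They were 1 of 3 for miR-221 and miR-222 and 3 of 7 for epithelium.

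Some probes passed the filter through 1 age only, which favors a difference toward that age, so no p-values are given for them. There were 20 that passed through 14 dpf, 16 of them called higher, and 19 that passed through 7 dpf, 11 of them called lower. On 0 arrays of the other age well above background were 9 of the 20 and 4 of the 19. The left arms of miR-200a and miR-141, both opposite arms of epithelial miRNAs, were among the 9. That of miR-200a read 6.92, 5.88 and 6.19 at 7 dpf and 8.33, 8.98 and 8.85 at 14 dpf, at least 2.48-fold higher. That of miR-141 was at least 2.62-fold higher. Among the 4 that were lost, the miR-430i-1 left arm was at least 2.18-fold lower at 14 dpf and the miR-430c-2 right arm at least 1.77-fold lower.

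The spread between replicates was small for most probes. The median SD was 0.069 at 7 dpf and 0.144 at 14 dpf, the age with fewer larvae in a pool. For 7 probes, an SD exceeded 1. The right arm of miR-146b-1 was one of them: it read 9.57, 11.82 and 8.28 at 7 dpf and 11.57, 10.65 and 10.74 at 14 dpf, and the difference of 1.10 was not called. Without replicate 2 of 7 dpf the difference was 2.09 (limma adjusted p = 0.0227), and without replicate 3 it was 0.31. Of the 69 called probes that the rule for naming selected and that were followed through all alternatives, 14 lost the call without at least 1 array. They include miR-15c (-0.71, adjusted p by limma 0.055 without replicate 3 of 14 dpf), miR-34c (-0.69, 0.0591 without replicate 1 and 0.0566 without replicate 3 of 7 dpf) and the miR-206-2 right arm (-0.31, 0.0571 without replicate 3 of 7 dpf, and under the fold threshold at -0.23 without replicate 2 of 14 dpf). The left arm of miR-193a (0.64) lost it without any one of the 6 arrays, with adjusted p-values by limma between 0.0554 and 0.128. The fall of miR-15c also depended on the scaling. Under the 75th percentile, 0 of the 5 named arms of miR-15 and miR-16 were called lower, and the lowest of them was at -0.044.

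The age change of the controls was set beside that of the kita:HRAS larvae on the same arrays. A test of the difference, on the log2 ratio of Ras over control, called 0 of 492 probes (limma), with 124 at an unadjusted p below 0.05 and a smallest adjusted p of 0.0744. The median half-width of the 95% interval of the difference was 0.328, and 52 probes differed by more than 1 without being called. Of the 14 right-arm miR-430 probes, all 14 were lower at 14 dpf in the Ras channel too, with medians of -2.69 in controls and -2.14 in Ras larvae. The 209 named arms of the other lists had medians of -0.02 in controls and 0.01 in Ras larvae. The 135 opposite arms, whether called or not, had medians of 0.55 and 0.342. On the log2 ratio within arrays, however, their median difference was -0.565, with 120 of the 135 below 0, against -0.012 for the 209 named arms. Of the 453 probes measured at both ages, 42 differed by more than 1 on the ratio, all of them below -1. Among these 42 were 36 of the opposite arms. Both channels of an array share its hybridization, and whether the arms differ between Ras and control larvae was not tested as a group.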

How the data were processed

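The deposited files hold one 2-color Agilent array each. The authors scanned the arrays and made the intensity values with Agilent Feature Extraction (9.5 and 9.5.3.1 per the submitters' processing notes), with background subtraction and dye normalization within the array, and deposited the log10 ratio of red over green beside them. The red processed intensity of the 6 control samples was used here. The 2 spots of a probe were averaged on the log2 scale without outlier-flagged spots, a probe counted as well above background only where its spots all were, and the arrays were quantile-normalized over the 546 known probes. Probes well above background on at least 2 of 3 arrays at either age were tested with limma 3.58.1 in R 4.3.3 (3 against 3, no block), with adjustment over 492 probes. The ratio of Ras over control was tested in the same way after turning the deposited log10 ratio to log2. Predicted hairpin probes entered one alternative scaling, one alternative adjustment of p-values and the counts given in the closing section. Tested on simulated data with 200 of 492 probes changed, the fit recovered 26%, 68%, 82% and 100% of changes of 0.25, 0.5, 1 and 2 on the log2 scale, and 7.38% of its calls were false. The number of arrays limits the precision, and p-values measure the spread between pools of larvae.

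The named probes were the 12 sequences with the largest rise and the 12 with the largest fall among non-overlapping calls, the brightest and the most changed named-arm probe of each list, probes well above background at 1 age only, and those of the miRNAs that the study followed. Further probes in the text were picked with their values in view. The members and lists were chosen with earlier results of these data known, and the comparison of arms was added after seeing the data. Alternatives were other scalings, background corrections, filters, thresholds and fits, and leaving out each array.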

Additional observations from a re-analysis of the deposited data

Results flagged for a closer look

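Besides the known miRNAs, the array holds 7058 probes for predicted hairpins, which entered the comparisons above only through alternative settings. A signal was present in these data: 1574 of them were well above background on at least 2 of 3 arrays at 7 or 14 dpf. Adjusted among themselves, 51 were called higher and 33 lower at 14 dpf (limma), of which 47 and 29 changed by more than 1 on the log2 scale.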

How the results depend on the processing

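The main fit called 134 probes higher and 129 lower (50.95% of calls higher). Scaling to the 75th percentile gave 220 and 73 (75.09% higher), no normalization between arrays 25 and 15 (62.5%), the fit of both channels 89 and 130 (40.64%), a log2 fold change above 1.2 gave 49 and 33, and averaging identical sequences 117 and 81 (59.09%). Leaving out 1 array gave between 113 and 130 higher and between 105 and 135 lower, 58 to 70 hairpins whose opposite arm changed more upward (69 with all arrays), and 0 probes whose age change differed between control and Ras larvae. Of 73 probes followed by name, 47 lost the call without a change of sign when no normalization was applied, and 8 with the 75th percentile. For a further 2 and 5, given below, the sign turned. Of those 5, the probes of miR-182, miR-217-1 and miR-144 had been called lower in the main fit and lost that call. Without normalization, the miR-182 probe lost it as well. With the row of the array on the slide as a covariate, the median difference of all tested probes was 0.03. This fit sets the 14 dpf arrays, all in row 2, against replicate 2 of 7 dpf alone. That replicate was the only 7 dpf array in row 2, and it was also the dimmest array. With 1 array left at 7 dpf in that row, the fit cannot tell age from what is particular to that array. Its calls are therefore not counted. The cause of the changes in calls between settings was not tested. Signs turned under the 75th percentile for the right arms of miR-126 (0.00695) and miR-182 (0.47) and the left arms of miR-217-1 (0.12) and miR-144 (0.0351). The same held for a probe labeled as left arm of miR-203b (0.56), whose sequence holds the first bases of the miR-203a right arm. Without normalization, signs turned for this miR-203b probe (0.38) and miR-182 (0.29). With the row covariate, the sign turned for the right arm of miR-146b-1 (-0.84).

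With the replicate number as a block (replicate block), 129 probes were called higher and 128 lower, and 249 of the 263 calls were kept. The opposite arm changed more upward in 63 hairpins and more downward in 1. Same-numbered samples share only a number: their deviations correlated at -0.0595, -0.112 and 0.311.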

Other observations

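Among 88 tested probes of miRNAs on no list, 23 were called higher, 27 lower and 38 were not called (limma). As a set they lay near the shares over all 492 tested probes, 27.2% higher and 26.2% lower. They were looked at after their values were seen. All 5 probes for miR-103 and miR-107, a family linked to lipid and insulin metabolism in mice, were called lower, with differences between -1.15 and -0.50, although one of the 2 for the left arm of miR-107 (-1.02) lost the call without replicate 1 or 3 of 7 dpf or replicate 3 of 14 dpf. All 4 probes of miR-22 were called higher, between 0.59 and 0.93, with both arms moving by like amounts. Both probes of miR-101 were called higher, by 0.29 and 0.33. The 4 left-arm probes of miR-135 were called lower, between -0.96 and -0.39, while 2 of the 3 right-arm probes were called higher, up to 1.96. MiR-210, which is induced by low oxygen in mammals, was called lower in its right arm (-0.70).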
